A study of Mus musculus with 24 samples.

Results

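Flavopiridol was tested in reactivated Th1 cells on 3 of the 24 arrays of a mouse series, 1 array of cells given DMSO, the solvent, and 1 array each of cells given 1 µM or 10 µM flavopiridol. The arrays were chosen by their labels alone, as reactivated Th1 cells treated for 6 hr with either dose and their DMSO control. All 3 held total RNA of Th1 cells differentiated in vitro from female C57BL/6 mice, in the Cy3 channel, and RNA of naive CD4+CD62L+CD25-CD44lo T cells of lymph nodes and spleens in the Cy5 channel. The naive reference also came from female C57BL/6 mice. One more array, of unstimulated Th1 cells with DMSO for 6 hr, is given beside them to show where each gene stood without reactivation. The stimulus used for reactivation and the order of drug and stimulus are not given in the labels of these arrays. Each condition had 1 array, so differences between conditions have no replicate check, and the 2 doses served as near repeats of 1 treatment. Whether the arrays shared a culture is also not given in the labels.

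Flavopiridol inhibits cyclin-dependent kinases, most potently CDK9, the kinase of P-TEFb. P-TEFb pairs CDK9 with cyclin T and phosphorylates paused RNA polymerase II and the factors that hold it near the promoter, which lets the polymerase move into the gene. Th1 cells are the helper T cells that make interferon gamma under the transcription factor T-bet, and on restimulation they switch on cytokine and early response genes within hours. The study links T-bet to the recruitment of P-TEFb, and the comparison asks which transcripts of reactivated Th1 cells change with this inhibitor. Dependence on CDK9 alone was not tested. An array reads the amount of RNA present, which reflects both its synthesis and its decay.

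Values are log2 ratios of the Th1 sample over the naive reference, so 0 means equal to naive cells, and a change of 1 between arrays is 2-fold. Of all probes, 48.9% were well above background in the Cy3 channel with DMSO, 40.1% with 1 µM and 35.4% with 10 µM flavopiridol. The Cy5 reference of the DMSO array differed from that of the 1 µM and 10 µM arrays by an SD of 0.24 and 0.27 (log2, over probes), against 0.15 between the 2 drug arrays and a median of 0.19 over all 276 pairs of arrays. Both drug arrays lay on a slide other than that of the DMSO array, so slide and drug cannot be told apart on these 3 arrays. T cell and Th1 genes were present as labelled. Cd3e and Cd4 were well above background on all 3 arrays, Tbx21 stood at 6.11 and Ifng at 8.59 over naive cells with DMSO, and Il17a and Foxp3 stood at 0.04 and -0.58. Some genes known from Th2 cells were also high with DMSO, with Il4 at 3.07, Il13 at 3.71 and Il1rl1 at 5.51. Gata3 and Il5 stood at -0.33 and 0.46.

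Many more transcripts were lower than higher with flavopiridol. Of 12350 genes measured, 2619 (21.2%) were at least 2-fold lower than with DMSO at both doses, and 1053 (8.53%) were at least 2-fold higher at both doses. At least 4-fold, 816 genes were lower and 119 higher, and at least 8-fold, 238 were lower and 16 higher. The change averaged over the doses ran from -7.61 to 4.38, and its median over all genes was -0.21. In RNA of a whole culture, fewer cells of a type and less RNA per cell cannot be told apart, and equal amounts of RNA were labelled. Of the 2619 lower genes, 2095 were still well above background on both drug arrays and 321 were above it on neither, so for these only a bound can be given. Set against unstimulated cells with DMSO, the level with drug was within 2-fold for 834 of the lower genes, at least 2-fold below for 1756 and at least 2-fold above for 29.

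The split between lower and higher genes depended on how the arrays were scaled. After loess, which holds most genes of an array near 0, spike-in RNA lay at -0.52 with DMSO, -0.30 with 1 µM and -0.19 with 10 µM. Lower genes made up 71.3% of those past 2-fold with loess, 85.2% after a spike-in shift and 65.8% in Cy3 alone. Centring each array on its median gave 94.1%, and on its spike-ins 98.7%. The median change of all genes was -0.48 after the shift, and -0.64 and -1.11 under these centrings. Changes below are relative to the loess bulk, and for gene groups on the higher side the value with spike-in centring, the scaling that lowered them most over all genes, is given beside them.

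**Figure D1:**
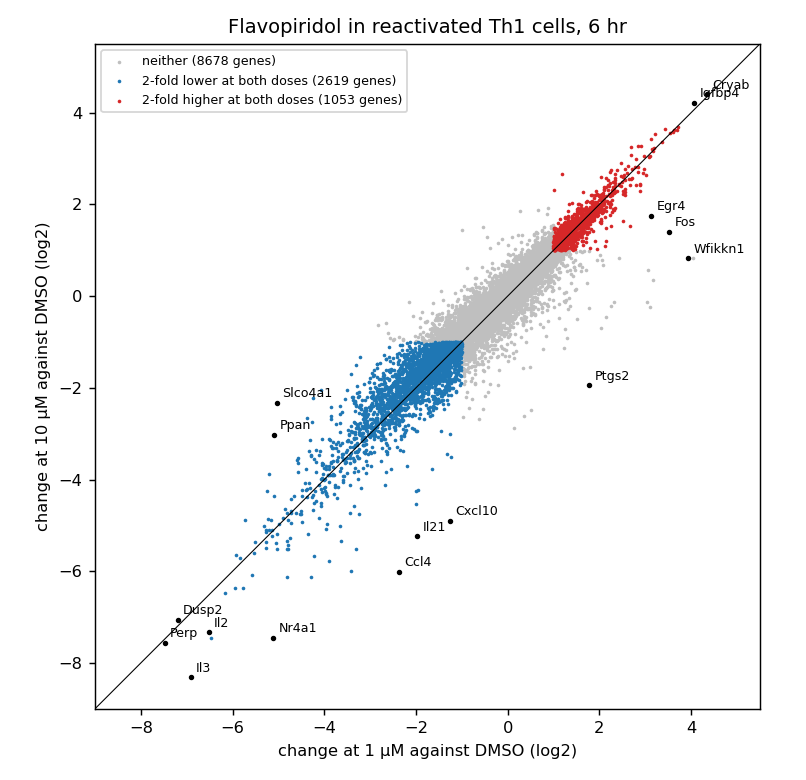
Change with 10 µM against change with 1 µM flavopiridol (both log2, reactivated Th1 cells against DMSO), 1 point per measured gene. The points follow the diagonal, 97.8% of genes lie within 2-fold of it, and far more points lie in the lower left (2619 genes) than in the upper right (1053 genes).

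The doses gave nearly the same picture. The median change was -0.22 at 1 µM and -0.20 at 10 µM, the difference between doses had an SD of 0.37 over genes, and only 3 genes were at least 2-fold lower at one dose and 2-fold higher at the other. A further 514 genes were at least 2-fold lower at 1 µM only, and 288 at 10 µM only.

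The cytokines that reactivated T cells secrete were among the most strongly reduced transcripts. Il2, the T cell growth factor, stood at 0.31 in unstimulated cells, 7.50 in reactivated cells with DMSO, 0.97 with 1 µM and 0.17 with 10 µM flavopiridol. Il3, a growth factor of blood progenitors and mast cells, went from 0.40 without reactivation to 8.68 with DMSO, and was 1.77 and 0.37 with the 2 doses. Csf2, which encodes GM-CSF, was at 0.87, 7.51, 1.05 and 0.06 in the same order. Averaged over the doses, the changes were -6.93 for Il2, -7.61 for Il3 and -6.95 for Csf2. Csf2 and Il2 were above background on the 1 µM array and not on the 10 µM array, so their 10 µM values and mean changes depend on the background level. Tnfsf11, which encodes the osteoclast factor RANKL, was at 5.48 with DMSO and above background on neither drug array, and its Cy3 signal was at least 67.4-fold lower. This bound and those below are of the Cy3 signal, not of the ratio.

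The upstream sequence of Il2 is shown because this gene had one of the largest falls and its promoter is the textbook example of an activation-dependent T cell promoter. The 250 bases before its start, on the minus strand at chr3:37125955-37126204 of GRCm38.p6 as given by RefSeq, hold a TATA box, which is in capitals and lies 31 to 26 bases before the start.
Il2: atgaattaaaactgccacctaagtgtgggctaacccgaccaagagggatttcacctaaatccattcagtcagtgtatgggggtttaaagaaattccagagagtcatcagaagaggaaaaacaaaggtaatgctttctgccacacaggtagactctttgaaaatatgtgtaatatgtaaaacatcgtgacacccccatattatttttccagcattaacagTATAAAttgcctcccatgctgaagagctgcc

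Of 26 effector cytokines and chemokines measured, 21 (80.8%, beside 21.2% of all genes) were at least 2-fold lower at both doses and none was higher, with a median change of -2.88 against -0.21 for all genes. Ccl9, a chemokine, went from 5.43 with DMSO to 0.29 and 0.34, above background only at 1 µM. The TNF family ligands Tnfsf9 (4-1BB ligand) and Tnfsf14 (LIGHT) changed by -5.01 and -5.16, the latter with no signal above background at 10 µM, and Fasl, which triggers death of target cells, by -3.83. Tnf itself stood at 4.11 with DMSO, 2.79 with 1 µM and 0.66 with 10 µM. The 5 members that did not pass 2-fold were Ifng, Ccl3, Osm, Lta and Ltb. Lta, which encodes lymphotoxin alpha, was at 0.46 in unstimulated cells, 3.15 with DMSO, and 3.17 and 3.42 with the drug.

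Ifng, the defining Th1 cytokine, needs both colour channels to be read. Its ratio was 7.15 in unstimulated cells, 8.59 in reactivated cells with DMSO, 7.91 with 1 µM and 7.94 with 10 µM, a change of -0.66. In Cy3 alone its change was -3.31, and the Cy5 signal of the naive reference for this gene differed by 2.80 over the 3 arrays. Ccl3 showed the same with a ratio change of -0.68, a Cy3 change of -6.92 and a Cy5 range of 6.72. Genes with a Cy5 range of at least 2-fold over the 3 arrays numbered 125 (1.01% of those measured), and 21 reached 4-fold. They include Il2, Il3, Ccl4, Xcl1 and Ccl1, for which Cy3 alone gave changes of -9.59, -9.86, -6.64, -7.10 and -10.01, all larger than those of the ratio. Why the reference signal of these genes moved was not tested.

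**Figure D2:**
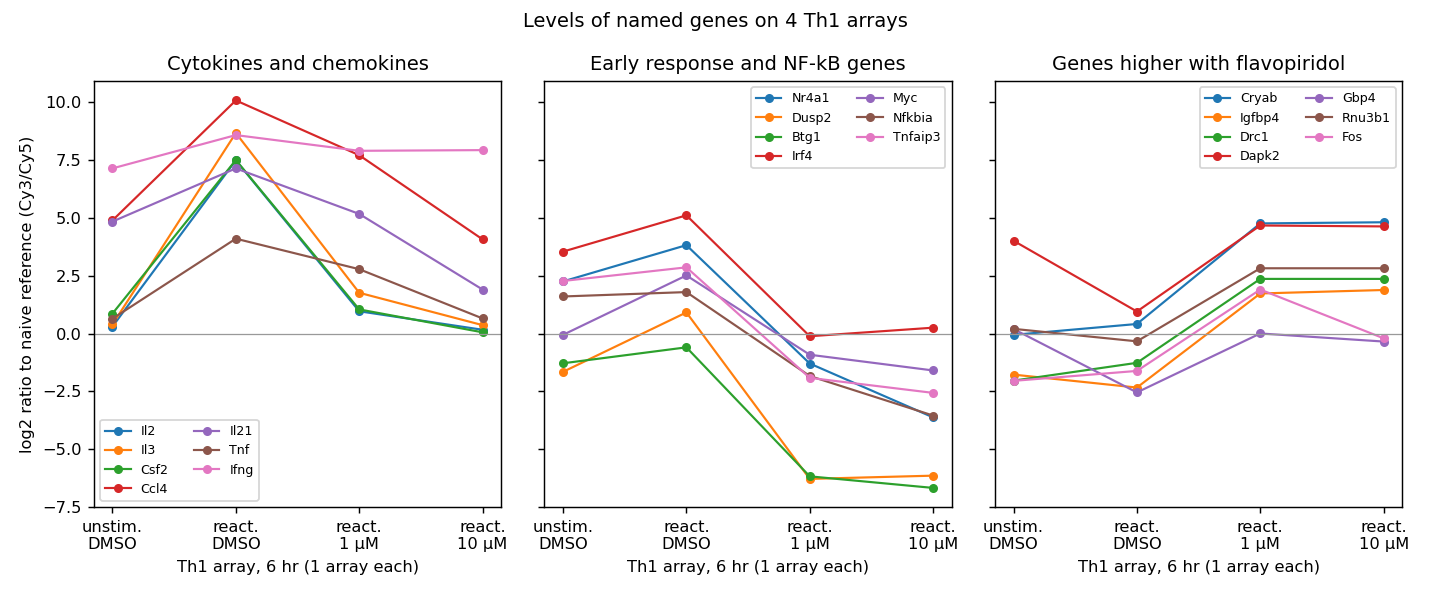
Log2 ratio over naive cells on 4 single arrays (unstimulated DMSO, reactivated DMSO, 1 µM and 10 µM flavopiridol), 1 line per gene in 3 panels of cytokines, early response and NF-kB genes, and raised genes. Il2, Il3 and Csf2 fall from 7.50, 8.68 and 7.51 with DMSO to below 2 with drug, Ifng stays between 7.15 and 8.59, and Cryab, Igfbp4 and Drc1 lie above their DMSO value at both doses.

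Early response genes, which T cells switch on within minutes to hours of receptor signalling, were lower as a group but not without exception. Of 39 measured, 27 (69.2%) were at least 2-fold lower at both doses and 2 (5.13%) were higher, beside 21.2% and 8.53% of all genes, with a median change of -2.40 against -0.21 for all genes. Dusp2, a nuclear phosphatase of MAP kinases, stood at -1.65 in unstimulated cells, 0.92 with DMSO, -6.28 with 1 µM and -6.14 with 10 µM. With drug this gene was thus more than 4 log2 units below unstimulated cells. Nr4a1, an orphan nuclear receptor and reporter of T cell receptor signalling, was at 2.26, 3.83, -1.29 and -3.62. Btg1, an antiproliferative factor abundant in resting lymphocytes, was at -1.28, -0.59, -6.17 and -6.67. Irf4, a transcription factor of activated T cells, changed by -5.04, Egr2 by -5.20 and Csrnp1 by -5.09. Dusp4 was above background on neither drug array and was at least 35.2-fold lower. Rgs1 and Rgs16, brakes of G protein signalling, changed by -6.32 and -6.07, and Pdcd1, which encodes PD-1, by -5.79. Rgs16 and Egr2 were not above background on the 10 µM array and Pdcd1 not on the 1 µM array, so those changes depend on the background level there.

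The 2 early response genes that were higher were Fos and Egr4. Fos, a subunit of AP-1, stood at -2.04 in unstimulated cells, -1.61 with DMSO, 1.91 with 1 µM and -0.20 with 10 µM. Egr4, a zinc finger factor, was at 1.51, 3.81, 6.93 and 5.55. Both were higher with 1 µM than with 10 µM, and both stayed above DMSO after spike-in centring, at 1.36 for Fos and 1.02 for Egr4. In unstimulated Th1 cells their changes were -1.39 and -1.40, and in reactivated Th2 cells 3.60 and 3.85. Myc, a regulator of growth genes, was lower, with -0.05, 2.52, -0.91 and -1.59 on the 4 arrays.

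Genes of the NF-kB pathway, whose subunits drive cytokine genes and whose inhibitors are themselves NF-kB targets, were lower almost throughout. Of 16 measured, 14 (87.5%, beside 21.2% of all genes) were at least 2-fold lower at both doses and none was higher, with a median change of -2.94. Among the inhibitors, Nfkbia, which encodes IkB alpha, stood at 1.61 in unstimulated cells, 1.80 with DMSO, -1.83 with 1 µM and -3.54 with 10 µM. Tnfaip3, which encodes the deubiquitinase A20, was at 2.28, 2.87, -1.91 and -2.56. Both were thus far below the level of unstimulated cells. Among the subunits, Rela changed by -3.88, Nfkb2 by -3.45, Relb by -3.15 and Nfkb1 by -2.95. Rel, at -0.86, and the inhibitor gene Nfkbiz, at -1.13 as a mean with -0.85 on the 1 µM array against 0.01 with DMSO, did not pass 2-fold at both doses. Rel was dim, with Cy3 of 6.69 with DMSO and 6.05 and 6.06 with drug, so its change may be limited by the background level. Over all 4 cell contexts described below, 13 of the 15 tested members were lower by limma, against 26.7% of all genes tested. That fit includes the reactivated Th1 arrays, so it is not separate from the values above.

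The sequences upstream of Nfkbia and Cxcl10 are shown because both genes are classical NF-kB targets that were lower at 10 µM than at 1 µM. Each is the 250 bases before the start in GRCm38.p6 as given by RefSeq, on the minus strand, at chr12:55492648-55492897 for Nfkbia and chr5:92348890-92349139 for Cxcl10. Capitals mark matches to the NF-kB pattern GGANTTTCC on either strand, 178 to 170 and 29 to 21 bases before the start of Nfkbia and 158 to 150 before that of Cxcl10, and to the AP-1 pattern TGANTCA, 74 to 68 bases before the start of Cxcl10.
Nfkbia: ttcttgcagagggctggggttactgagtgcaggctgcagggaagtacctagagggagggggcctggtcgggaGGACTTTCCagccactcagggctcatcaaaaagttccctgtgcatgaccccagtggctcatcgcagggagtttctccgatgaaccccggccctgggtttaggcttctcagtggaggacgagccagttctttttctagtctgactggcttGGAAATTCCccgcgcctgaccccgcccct
Cxcl10: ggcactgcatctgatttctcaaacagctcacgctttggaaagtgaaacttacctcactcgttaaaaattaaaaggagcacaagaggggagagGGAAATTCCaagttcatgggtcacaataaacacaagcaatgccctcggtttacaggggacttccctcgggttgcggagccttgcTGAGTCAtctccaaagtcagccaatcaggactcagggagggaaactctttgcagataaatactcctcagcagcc

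Such matches are short and were read as a description of the window only. Promoter windows were found for 2124 of the 2619 lower genes and for 9930 of all 12350 measured. Unlike the sequences shown above, these windows also held bases just after the start. The shares below are therefore not of the 250 bases before the start alone. The NF-kB pattern was in 1.8% of the 2667 windows of lower genes and in 2.64% of those of genes at least 4-fold lower, against 1.08% of the windows of higher genes, 1.2% of those of genes in neither class, 1.32% of those of all measured genes and 1.25% of all 32851 promoters in the table. Windows of genes that rose on reactivation in the 24 hr pair held it in 2.67% where the gene was lower with drug and in 2.76% where it was not called. A CRE (TGACGTCA) was in 4.09% of windows of lower genes, 2.16% of those of higher genes and 2.87% of those of genes in neither class. A TATA box (TATAAA) was in 7.01%, 7.28% and 8.43%, and the AP-1 pattern in 5.36%, 6.38% and 5.33%. The CArG box lay in 1.54%, 1.53% and 1.3%.

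Th1 identity genes were divided. Of 27 measured, 11 (40.7%) were at least 2-fold lower and 3 (11.1%) higher, beside 21.2% and 8.53% of all genes, with a median change of -0.78. Tbx21, which encodes T-bet, stood at 5.41 in unstimulated cells, 6.11 with DMSO, 2.30 with 1 µM and 2.23 with 10 µM. The Th1 factor thus lay well below unstimulated Th1 cells and still above naive cells at both doses. Havcr2, which encodes the inhibitory receptor TIM-3, changed by -4.08, Id2, a partner of helix-loop-helix factors, by -4.07, Bhlhe40, a factor needed for cytokine production, by -3.94 and the chemokine receptor Cxcr6 by -3.90. The 3 higher genes all encode receptors. Il12rb2, a chain of the IL-12 receptor, was at 1.60, 0.98, 3.17 and 3.51 on the 4 arrays, Il18r1, a chain of the IL-18 receptor, was at 1.96, 0.49, 2.04 and 2.01, and the chemokine receptor Ccr2 changed by 1.67. With spike-in centring these changes were 0.91, 0.56 and 0.50. The effector genes Gzma and Gzmb, which encode granzymes, and Runx3, a factor acting with T-bet, changed by 0.80, 0.09 and 0.23 and did not pass 2-fold. Of 472 genes that the study lists as nearest to T-bet super-enhancers, a list that did not come from these arrays, 354 were measured. Among these 133 (37.6%) were lower, against 21.2% of all genes, and 39 (11%) were higher, against 8.53%, with a median change of -0.59.

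The transcript of the targeted kinase was itself lower with drug. Cdk9 stood at 0.11 in unstimulated cells, 0.19 with DMSO, -1.56 with 1 µM and -1.18 with 10 µM. Mepce, the enzyme that caps the inhibitory 7SK RNA, also went from -0.75 with DMSO to -3.46 and -3.39. Of the 7 P-TEFb genes measured 3 (42.9%, beside 21.2% of all genes) were lower and none was higher. Hexim1, which holds P-TEFb inactive, changed by 0.03, the 7SK binding protein Larp7 by 0.20, and the cyclin T genes Ccnt1 and Ccnt2 by -0.80 and -0.69, none past 2-fold at both doses. Ccnt2 was dim, with Cy3 of 7.26 with DMSO and 6.73 and 6.66 with drug, so its change may be limited by the background level. Of 36 further elongation and Mediator genes, 17 (47.2%) were lower and 2 (5.56%) higher, beside 21.2% and 8.53% of all genes, with a median change of -1.04 against -0.21. Med26, a Mediator subunit that recruits elongation factors, changed by -2.34, and Paf1, Leo1 and Ctr9, of the Paf complex that travels with the polymerase, by -1.97, -2.11 and -1.82. The elongation factor gene Ell2 was above background on neither drug array and was at least 5.24-fold lower.

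Genes for survival and for feedback on signalling were mixed. Of all measured genes 21.2% were lower and 8.53% higher. Of 21 short-lived survival and cell cycle regulators, 8 (38.1%) were lower and 1 (4.76%) higher. Mcl1, a survival protein of the BCL-2 family with a short-lived message, stood at -0.46 in unstimulated cells, -1.09 with DMSO, -4.19 with 1 µM and -4.94 with 10 µM. Other BCL-2 family genes were lower too, with -4.51 for Bcl2a1d, -2.70 for Bcl2l1 and -2.36 for Bcl2l11, while Bcl2 and Bax, with 0.46 and 1.03, did not pass 2-fold at both doses. Ccnd3, which encodes cyclin D3, was the higher member, at 2.14. Of 27 p53 target genes, 11 (40.7%) were lower and none higher, led by Perp, an apoptosis effector, which was at 4.13 in unstimulated cells, 8.44 with DMSO, 0.97 with 1 µM and 0.88 with 10 µM. Cdkn1a, which encodes p21, changed by -1.18 as a ratio and by -3.29 in Cy3 alone, with a Cy5 range of 2.15. Of 11 SOCS and Pim genes, which dampen or prolong cytokine signals, 7 (63.6%) were lower, with -3.50 for Cish and -2.89 for Socs1. The 1 higher gene, Pim2, changed by 1.52, or by 0.16 with spike-in centring. Among 16 genes of quiescence and homing, 6 (37.5%) were lower, with -4.73 for the lymph node homing receptor Ccr7 and -2.36 for Foxo1, and 1 was higher.

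Genes for making ribosomes and for folding and splicing were also reduced in part. Of 30 ribosome biogenesis genes 19 (63.3%, beside 21.2% of all genes) were lower and none higher, with a median change of -1.42. Nop56, a core protein of snoRNA particles, was at 0.13 in unstimulated cells, 1.73 with DMSO, -1.47 with 1 µM and -0.73 with 10 µM. In unstimulated Th1 cells the median of the list was 0.18 and in reactivated Th2 cells -2.30. Of 15 heat shock genes, 6 (40%) were lower, with -3.96 for the endoplasmic reticulum chaperone gene Hspa5 and -3.87 for Hspa8, and Cryab was higher. Of 13 SR splicing factor genes, 6 (46.2%) were lower, with -3.25 for Srsf7.

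**Figure D3:**
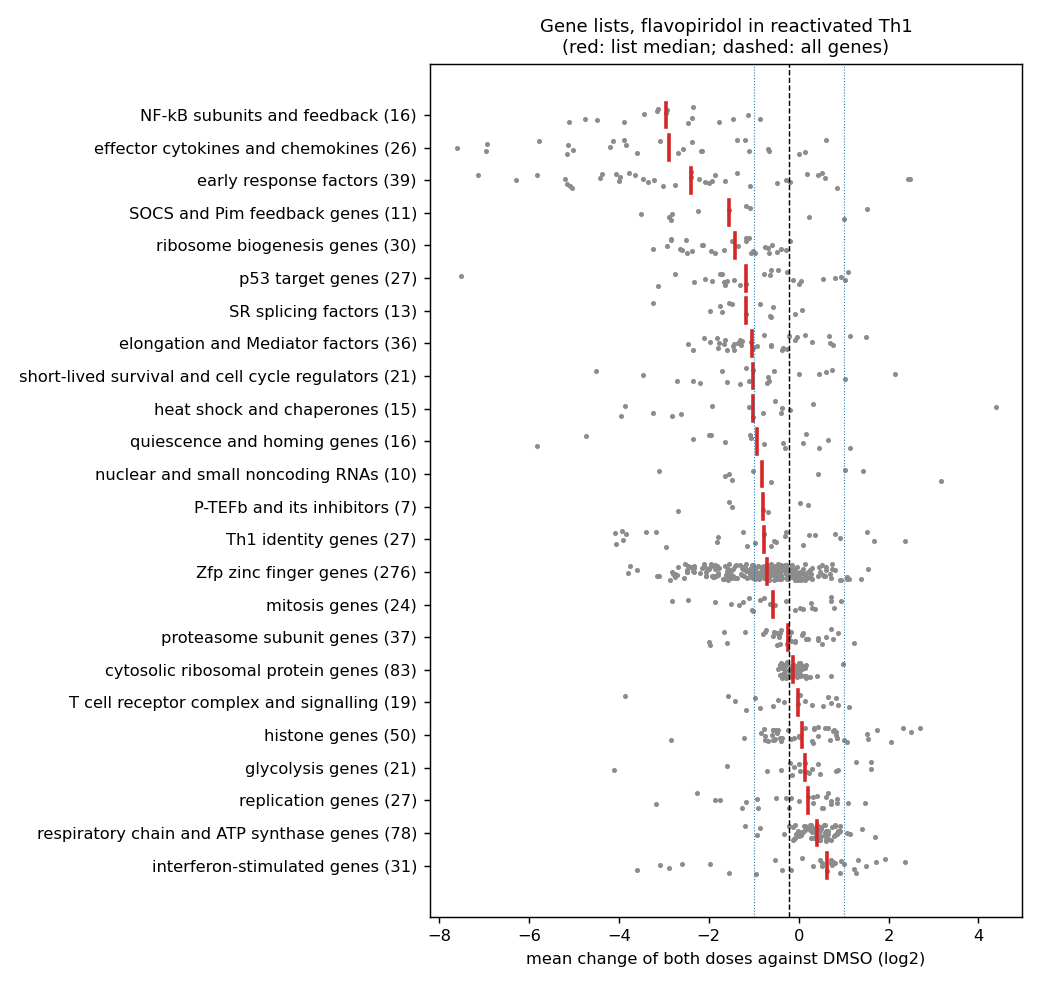
Change with flavopiridol in reactivated Th1 cells (log2, mean of both doses against DMSO), 1 point per measured gene and a bar at the median of each of the 24 lists drawn, without the marker lists of other cell types and the super-enhancer list. These medians run from -2.94 for NF-kB genes and -2.88 for effector cytokines to 0.41 for the respiratory chain and 0.63 for interferon-stimulated genes.

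None of 83 cytosolic ribosomal protein genes passed 2-fold at both doses in either direction, and their changes ran from -0.45 to 0.99 with a median of -0.13, which became 0.57 with arrays centred on their median and 0.11 with spike-in centring, where the median of all genes was -0.64 and -1.11. The shares of all genes were 21.2% lower and 8.53% higher. Of 78 respiratory chain and ATP synthase genes 1 (1.28%) was lower and 3 (3.85%) were higher, with a median of 0.41, or -0.02 with spike-in centring. Of 37 proteasome subunit genes 5 (13.5%) were lower and 1 (2.7%) higher. Of 19 genes of the T cell receptor complex and its signalling, 4 (21.1%) were lower and 1 (5.26%) higher, near the shares of all genes, with a median of -0.01. Cd3e and Cd247, chains of the receptor complex, and the kinase gene Lck changed by 0.71, -0.01 and 0.04. Among 21 glycolysis genes 2 (9.52%) were lower and 3 (14.3%) higher. The 2 lower ones were the glucose transporter gene Slc2a1 at -4.11 and the hexokinase gene Hk2 at -1.60. Of 27 replication genes 5 (18.5%) were lower and 2 (7.41%) higher, with -3.18 for the licensing factor gene Cdt1. Of 24 mitosis genes 7 (29.2%, beside 21.2% of all genes) were lower and none higher, with -2.81 for Aurka and -2.46 for Plk1, which encode mitotic kinases. Of 276 measured Zfp zinc finger genes 77 (27.9%) were lower and 4 (1.45%) higher, beside 21.2% and 8.53% of all genes. Of these 276 genes 103 were above background with DMSO and on neither drug array, so they entered through the DMSO array alone.

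Fewer transcripts were higher with drug, and several of the leading ones were near or below naive level with DMSO. Cryab, a small heat shock protein, stood at -0.05 in unstimulated cells, 0.42 with DMSO, 4.77 with 1 µM and 4.82 with 10 µM. Igfbp4, which binds insulin-like growth factors, was at -1.77, -2.33, 1.74 and 1.89, and Drc1, a subunit of the dynein regulatory complex of cilia, at -2.03, -1.26, 2.37 and 2.37. The doses gave closely similar values for these genes, and their changes with spike-in centring were 2.88, 3.12 and 2.36. They were also higher over the 3 other cell contexts described below, with adjusted p of 0.0186, 0.0169 and 0.0169 (limma, Benjamini-Hochberg). Dapk2, a calcium-regulated kinase, was at 4.02 in unstimulated cells, 0.96 with DMSO, 4.68 and 4.64 with drug, and so lay with drug near its unstimulated level. Cnn2, a calponin that binds actin, Rab37, a small GTPase of secretion, and Podnl1 were also lower with reactivation and DMSO than in unstimulated cells or with drug, with -1.54, -3.79, -0.24 and -0.23 for Cnn2 and changes of 3.36 for Rab37 and 3.37 for Podnl1. The chemokine receptor gene Cxcr1, the GPI anchor enzyme gene Pigz, Gata1, known as a factor of red cell and platelet precursors, and Esm1 changed by 3.60, 3.66, 3.54 and 3.28.

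Nuclear and small noncoding RNAs lay on both sides. Of 10 measured in the fixed list 3 (30%) were lower and 3 (30%) higher, beside 21.2% and 8.53% of all genes, with a median change of -0.81. Rnu7, the U7 RNA that processes histone messages and no member of that list, stood at -0.11 in unstimulated cells, -0.27 with DMSO, 2.93 with 1 µM and 2.97 with 10 µM, and Rnu3b1, a U3 snoRNA of ribosomal RNA processing, at 0.21, -0.33, 2.83 and 2.83. With spike-in centring their changes were 1.74 and 2.67. Rpph1 and Rmrp, the RNA parts of RNase P and RNase MRP, changed by 1.43 and 1.04, or by 0.11 and 0.06 with spike-in centring. In contrast the snoRNA host genes Snhg12 and Snhg3 and the nuclear RNA Neat1 were lower, at -3.11, -1.63 and -1.49. Of 50 histone genes 8 (16%) were higher and 2 (4%) lower, with a median of 0.08, or -0.42 with spike-in centring. The linker histone gene H1f1 was at 3.91, 2.81, 5.07 and 5.56 on the 4 arrays and H2bc8 changed by 2.69, while H3f3b, a replication-independent histone gene, changed by -2.85. Near-identical histone genes share probe sequence, and cross-hybridisation among them was not tested.

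Interferon-stimulated genes were found on both sides. Of 31 measured, 6 (19.4%) were lower and 6 (19.4%) higher, beside 21.2% and 8.53% of all genes, with a median of 0.63 that turned to -0.54 with spike-in centring and -0.07 with arrays centred on their median. Irf1, an interferon response factor, was at 0.63 in unstimulated cells, -1.30 with DMSO, -4.67 with 1 µM and -5.14 with 10 µM, and Isg15 changed by -2.59. The higher members were Gbp4, Gbp7, Gbp6, Usp18, Oas3 and Psmb8. Gbp4, a guanylate-binding protein of cell-autonomous defence, stood at 0.20, -2.54, 0.01 and -0.34, and so was back near its unstimulated level with drug. In the other contexts its change was -0.33 (unstimulated Th1), 0.08 (reactivated Th2) and 0.03 (unstimulated Th2), and the list median was -0.42, -1.54 and -0.79.

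The drug was also set against the direction of each gene's own response to reactivation. Classes were taken from the other Th1 DMSO pair, of 24 hr, which shares no array with the drug comparison, with a threshold of 2-fold. The 1213 genes that rose on reactivation in that pair had a median ratio of 0.19 in unstimulated cells at 6 hr, 1.52 with DMSO, -0.01 with 1 µM and -0.03 with 10 µM. Their median change with drug was -1.67, 833 (68.7%) were at least 2-fold lower and 7 were higher. The 9394 genes in neither class had a median change of -0.19 and 17.9% were lower. The 1514 genes that fell on reactivation had a median ratio of -0.12 in unstimulated cells, -1.23 with DMSO, -0.81 with 1 µM and -0.70 with 10 µM, a median change of 0.58, and 27.4% were at least 2-fold higher, beside 6.69% of the genes in neither class and 8.53% of all genes. That last direction depended on scaling, as the median was 0.30 after a spike-in shift and -0.58 with spike-in centring. At a 4-fold class threshold 320 of 347 genes that rose (92.2%) were lower, with a median change of -2.71. With classes from the Th2 DMSO pair, 884 of 1504 genes that rose (58.8%) were lower, with a median of -1.38.

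**Figure D4:**
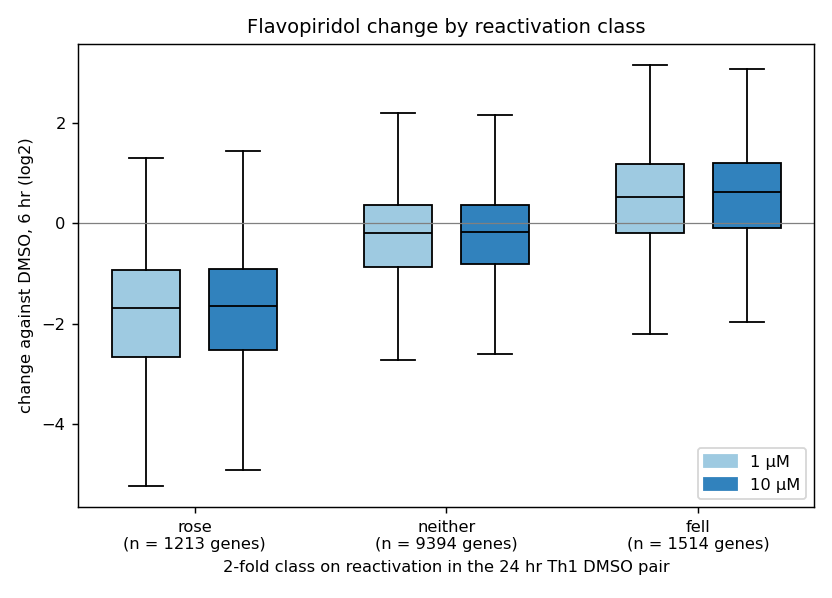
Change with 1 µM and 10 µM flavopiridol (log2 against DMSO) in reactivated Th1 cells for genes that rose, did neither or fell on reactivation in the 24 hr DMSO pair. Boxes span the quartiles with the median and whiskers reach 1.5 times that span. The medians are -1.69 and -1.64 for the 1213 genes that rose, -0.19 and -0.18 for the 9394 in neither class and 0.53 and 0.62 for the 1514 that fell.

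Whether these changes recurred in other cells was tested over 4 contexts, unstimulated and reactivated Th1 and Th2 cells, with the mean of both doses against the DMSO array of each context. The Th2 DMSO arrays carry 24 hr in one label and 6 hr in another, so their time is unknown. The DMSO array of every context lay on one slide and the flavopiridol arrays on 2 others, so slide and drug cannot be told apart in this test either, and in a fit of all 24 arrays the calls went from 5343 lower and 2758 higher without slide to 2109 lower and 1114 higher with slide as a fixed block. Limma with Benjamini-Hochberg adjustment called 3314 of 12425 genes lower (26.7%) and 1326 higher (10.7%), with a median SE of 0.21. Since the reactivated Th1 arrays are part of that fit, the other 3 contexts were also fitted alone. There 1435 of the 2568 lower genes that could be tested (55.9%) were called lower, against 15.7% of all genes, and 351 of 1052 higher genes (33.4%) were called higher, against 5.05%. At 2-fold, 1038 genes were lower and 227 higher in all 4 contexts. Of the 2619 lower genes 2036 were at least 2-fold lower in reactivated Th2, 1747 in unstimulated Th1 and 1421 in unstimulated Th2 cells as a mean of the doses, where 26.4%, 23.3% and 22.3% of all measured genes were lower. Of the 1053 higher genes the counts were 689, 455 and 304, where 11.2%, 7.24% and 5.77% of all measured genes were higher.

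Single genes are given by their change in reactivated Th1, unstimulated Th1, reactivated Th2 and unstimulated Th2 cells, in that order, with the adjusted p of the fit over the 3 contexts without reactivated Th1 (limma, Benjamini-Hochberg). Btg1 changed by -5.83, -5.69, -4.56 and -4.62 (adjusted p 0.0169). Dusp2 changed by -7.13, -4.71, -5.56 and -3.36 (adjusted p 0.0169), and Nfkbia by -4.48, -6.65, -2.46 and -4.13 (adjusted p 0.0288). These 3 genes were lower in 3 of 3 other contexts. Tbx21 changed by -3.84, -4.04, -4.24 and -0.05, lower in 2 of 3 other contexts, and did not pass (adjusted p 0.0937). Il2 changed by -6.93, -0.16, -6.09 and -1.04 and Il3 by -7.61, -0.36, -6.54 and -1.11. Both had large changes in the 2 reactivated contexts and did not pass (adjusted p 0.214 and 0.198). Of 25 effector cytokine genes tested 7 were called lower over the 4 contexts, and of 38 early response genes 23, beside 26.7% of all genes.

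No gene was shown to respond differently in reactivated Th1 cells than in the other contexts. Limma with Benjamini-Hochberg adjustment called 0 of 12425 genes (0%) for that difference, with 163 at an unadjusted p below 0.05, a smallest adjusted p of 0.999 and a median SE of 0.51 on the log2 scale. With 2 residual degrees of freedom a missed threshold does not show that the contexts respond alike. Dapk2 had the smallest unadjusted p, with a difference of 3.88 (SE 0.52, limma, adjusted p 0.999). Its change was 3.70 in reactivated Th1 cells, against 0.20, -0.08 and -0.68 in unstimulated Th1, reactivated Th2 and unstimulated Th2 cells.

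In reactivated Th1 cells 274 genes stood at least 2-fold apart between the doses, 135 lower (1.09%) and 139 higher (1.13%) at 10 µM than at 1 µM. Both doses of a context lay on 1 slide. In the first group, Ptgs2, which encodes the prostaglandin enzyme COX-2, stood at 0.03 in unstimulated cells, 2.13 with DMSO, 3.91 with 1 µM and 0.18 with 10 µM. Cxcl10, a chemokine that draws Th1 cells, was at 5.64, 5.96, 4.70 and 1.06, Ccl4 at 4.90, 10.09, 7.72 and 4.08, and Il21, a helper cytokine, at 4.85, 7.15, 5.18 and 1.91. At 10 µM these genes were near or below the unstimulated level, where Ptgs2 was not above background. Hdc, which encodes the enzyme that makes histamine, was at 0.42 in unstimulated cells, 0.30 with DMSO, 3.41 with 1 µM and 0.07 with 10 µM. Cd69, an early activation marker, was at 1.19, 0.99, 1.11 and -1.90, and the factor gene Cebpd at 3.86, 2.76, 3.26 and 0.28. Hdc and Cebpd were not above background at 10 µM, so their dose differences depend on the background level there. In the early response list 9 of 39 genes were at least 2-fold lower at 10 µM and in the effector cytokine list 6 of 26, and none of either list was higher.

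The second group changed in the other direction. Slco4a1, an organic anion transporter, stood at 3.59 in unstimulated cells, 5.62 with DMSO, 0.58 with 1 µM and 3.30 with 10 µM. Ppan, a ribosome biogenesis factor, was at -1.72, 1.55, -3.55 and -1.48, and Traf2, an adaptor of TNF receptors, at 1.12, 0.80, -3.45 and -1.42. Tab1, an activator of the kinase TAK1, and Ifngr1, a chain of the interferon gamma receptor, were 2.07 and 2.04 higher at 10 µM than at 1 µM. For these genes the lower dose gave the lower level.

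Dose differences were tested over the 4 contexts, a comparison chosen after the values of reactivated Th1 cells were seen. Limma with Benjamini-Hochberg adjustment called 557 of 12430 genes lower (4.48%) and 1395 higher (11.2%) at 10 µM. Since reactivated Th1 cells are part of that fit, the other 3 contexts were also fitted alone, where 301 genes (2.42%) were called lower and 827 (6.65%) higher at 10 µM. Of the 139 genes higher at 10 µM in reactivated Th1 cells 119 were called over 4 contexts and 111 (79.9%) over the other 3, and 88 were also at least 2-fold higher in reactivated Th2, 83 in unstimulated Th1 and 81 in unstimulated Th2 cells, where 3.18%, 1.21% and 2.79% of all measured genes were. Slco4a1 was 2.72 higher in reactivated Th1 cells and 2.65 to 3.27 higher in the other 3 contexts, with an adjusted p of 0.0063 over those 3 alone (limma, Benjamini-Hochberg). Of the 135 genes lower at 10 µM 45 were called over 4 contexts and 30 (22.2%) over the other 3, and 108 were at least 2-fold lower in reactivated Th2, 24 in unstimulated Th1 and 18 in unstimulated Th2 cells, where 2.49%, 0.405% and 0.445% of all measured genes were. A contrast of the dose difference between reactivated and unstimulated contexts called 48 genes (0.386%), all with a lower value at 10 µM in reactivated cells, and 40 of them were among the 135, an overlap that is partly built in because the reactivated Th1 value enters both. Ptgs2, for example, was 3.73 and 4.57 log2 lower at 10 µM in reactivated Th1 and Th2 cells and 0.01 and 0.08 lower in the unstimulated ones. It stood at 0.03 in unstimulated Th1 cells with DMSO and was not above background at 10 µM in reactivated Th1 cells. How far the background level shaped these dose differences was not tested.

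**Figure D5:**
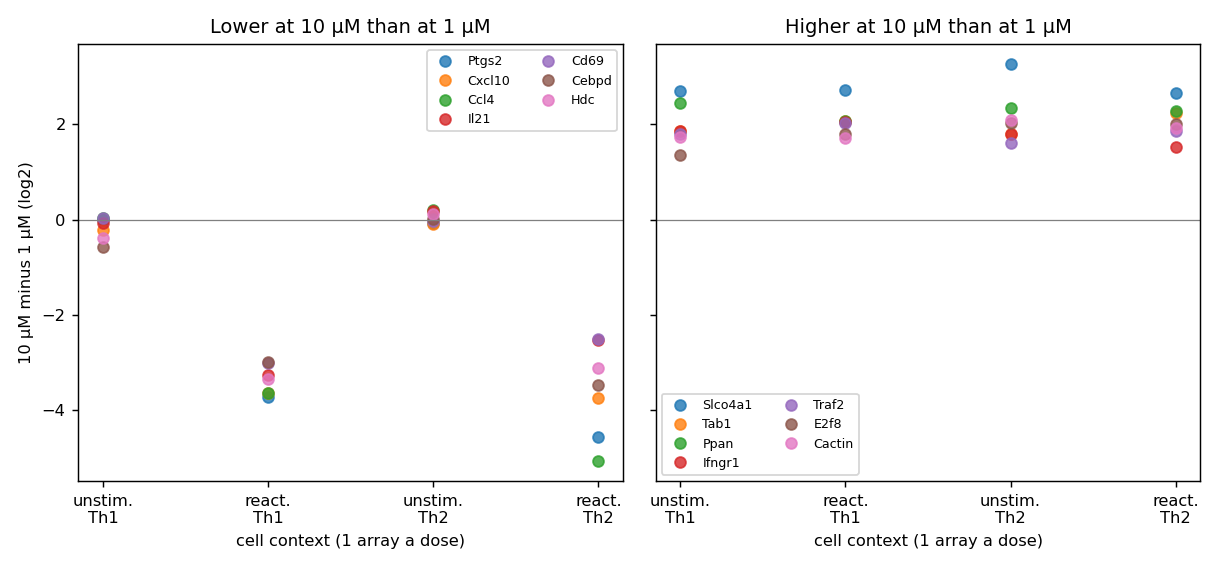
Difference between 10 µM and 1 µM flavopiridol (log2) in 4 cell contexts, 1 point per context, for 7 genes that were lower and 7 that were higher at 10 µM in reactivated Th1 cells. Ptgs2 differs by -3.73 in reactivated Th1 cells and near 0 in unstimulated cells, while Slco4a1 differs by 2.65 to 3.27 in every context.

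Markers of other cell types moved with the drug in both directions, and their part in the results was not tested. Of all measured genes 21.2% were lower and 8.53% higher. Of 6 measured B cell markers 3 were lower and none higher, among them Blnk, at 2.81 with DMSO and 0.71 and 0.84 with drug, and Ms4a1, which was above background on neither drug array. Both CD8 markers were higher, Cd8a at 1.24 and Cd8b1 at 1.33, or 0.20 and 0.00 with spike-in centring. Of 12 myeloid markers 4 were measured, of which Itgam was lower at -2.11 and Csf1r higher at 1.54. Of 8 Th2 markers 3 were lower, Gata3 at -2.36 and the cytokine genes Il4 and Il13, which stood at 3.07 and 3.71 with DMSO, were above background on neither drug array and were at least 5.53-fold and 9.47-fold lower.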

How the data were processed

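RNA was read on 24 two-colour Agilent arrays. The deposited scanner files hold intensities and a log10 log ratio written by Feature Extraction 10.7.1.1, and the authors' value table holds log2 ratios whose normalization is not given in the sources used here. Median intensities were background-corrected (normexp, offset 50) and loess-normalized within arrays (limma 3.58.1 in R 4.3.3), after which control spots and spots marked as outliers were removed. The scanner's red over green ratio was turned to Cy3 over Cy5. Of 55681 probes 26437 could be named, giving 20028 genes, each read by its brightest probe. Names and upstream sequences came from RefSeq (GRCm38.p6), and the grid was built on mm9.

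A gene was measured when Cy3 was well above background with DMSO or on both drug arrays, and called when at least 2-fold from DMSO at both doses. A bound sets the brighter mean in Cy3 against the dim arrays, each at its own Cy3 signal or its background limit, whichever is higher. Over contexts, limma tested 1 dose-averaged difference per context at an adjusted p of 0.05 (Benjamini-Hochberg), and the scripts were tested on simulated data. With 1 array per condition, p-values measure the spread between contexts. The genes, lists and tests were chosen with earlier results of these data known. Named genes were the 12 largest falls and rises that passed 2-fold at both doses, up to 5 per list, and genes of known role in the pathway. Ptgs2, Hdc, Cd69, Cebpd, Slco4a1, Tab1, Ppan, Traf2, Ifngr1 and members that lists are described by were added after their values were seen. Alternatives covered scaling, background correction, filters, probe rule, control array, slide and single doses. No dye swap was made, so a dye effect common to all arrays cancels only in differences between arrays. Some members of the lists are counted but not reported here by name.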

Additional observations from a re-analysis of the deposited data

Results flagged for a closer look

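The difference between 10 µM and 1 µM flavopiridol itself differed between reactivated and unstimulated contexts for 48 genes (limma, Benjamini-Hochberg), a test of the difference in effect between cell states made after the values were seen. The genes named here were among those with the largest falls from 1 µM to 10 µM in reactivated Th1 cells. For them the dose difference in reactivated minus that in unstimulated contexts was -4.1 for Ptgs2, -4.48 for Ccl4, -3.54 for Cxcl10 and -2.95 for Il21. It was -3.1 for Hdc, -3.01 for Apom, -2.95 for Cebpd and -2.77 for Cd69. It was -2.58 for Chadl, -2.14 for Wfikkn1 and -1.66 for 1700001P01Rik. Of the 15 genes with the largest such falls, among those above background with DMSO and on a drug array, 4 did not pass. These were Oxt at -0.05, AW209491 at -1.57, Bdh2 at -1.37 and Cdk5r1 at -2.63. Slco4a1, with the largest difference in the other direction among such genes, did not pass either, at -0.31. Each of these compares 2 reactivated with 2 unstimulated contexts, and at 10 µM Ptgs2, Hdc, Apom, Cebpd and 1700001P01Rik were not above background in reactivated Th1 cells.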

How the results depend on the processing

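Genes lower at both doses numbered 4320 when arrays were centred on their median and 6098 when centred on spike-ins, and genes higher 269 and 78, or 599 after a spike-in shift and 1980 with the scanner's log ratio. At 1.5-fold 3937 were lower and 2122 higher, and at 4-fold 816 and 119. Either dose alone gave 2907 to 3133 lower and 1235 to 1299 higher genes. Of 33 lists, 11 had a median at least 2-fold lower, and 18 under median and 20 under spike-in centring, 7 at 1 µM alone and 6 relative to the median of all genes, a setting chosen after seeing the data. Genes that rose on reactivation had a median of -2.21 under median centring, -2.68 under spike-in centring and -2.71 at a 4-fold class threshold. Dose differences of 2-fold numbered 1579 with the scanner's log ratio, 542 without background correction and 541 with an offset of 16, and the tests added after seeing the data called 1952 over contexts, 1128 over the other 3 contexts and 48 between states. Over contexts, limma called 6969 lower and 186 higher under median centring, 10322 and 19 under spike-in centring and 5732 and 184 after a spike-in shift. Leaving out a context gave 1957 to 2850 lower and 628 to 1004 higher, lowest without reactivated Th1 (628 higher) and unstimulated Th1 (727 higher). With 12 arrays 2254 were higher, and with slide as a fixed block over 24 arrays 2109 were lower, against 5343 without it. The difference of reactivated Th1 from other contexts called 0 to 6 genes with a context left out and 1 with 12 arrays. The 6 came without reactivated Th2, with 1 residual degree of freedom, and lay near naive level in unstimulated Th1 cells with DMSO, and the 1 (Dapk2) counts the doses as separate arrays, so neither is taken as a difference. Of 136 values of these counts and medians 100 stayed close to the reported one. Of 2726 values for 182 named genes, 78 lost the call, 88 gained it and 2 turned direction, both with the scanner's log ratio, to 0.66 for Hk2 and 0.12 for Xcl1. No paired analysis was possible because each condition has 1 array and its replicate number pairs nothing, and the fit over contexts already sets each drug value against its own DMSO array. The cause of these shifts was not tested. Dim signal limits falls, since 1627 of 12254 genes above background with DMSO were above it on neither drug array.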

Other observations

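Among genes the fixed lists do not hold, Crtam, a receptor of cytotoxic-type T cells, stood at -0.53 in unstimulated cells, 5.17 with DMSO, -0.78 with 1 µM and -1.19 with 10 µM. Apom, the carrier of sphingosine 1-phosphate in plasma, was at 0.07, 0.43, 3.46 and 0.30, and so was high at 1 µM alone. Among markers of other lineages, none of the 3 Th17, 3 Treg, 1 NK and 1 erythroid markers measured passed 2-fold at both doses.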
